A study of Mus musculus with 36 samples.

Results

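The CADM, NCAM and L1 families of immunoglobulin cell adhesion molecules were followed in perisynaptic Schwann cells (PSCs) and the cells sorted beside them from mouse skeletal muscle. Their members were taken by name, and all 10 (Cadm1, Cadm2, Cadm3, Cadm4, Ncam1, Ncam2, L1cam, Nrcam, Chl1 and Nfasc) were found among the 52636 genes of the count table and were among the 15330 genes that passed the filter on low counts. PSCs carried much more RNA of 7 of them than both other cell types did, while Cadm3 stood the other way round and was highest in the S100β-GFP+ cells.

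The cells came from diaphragm, pectoralis, forelimb and hindlimb muscles of juvenile S100β-GFP;NG2-dsRed mice, starting at postnatal day 15, and were sorted by FACS. In these mice the S100b promoter drives GFP and the Cspg4 (NG2) promoter drives dsRed, and every group carried both transgenes. The groups were double-labelled PSCs (labelled NG2DsRed+/S100GFP+, 9 libraries), cells with GFP alone (S100GFP+, 8 libraries) and cells with dsRed alone (NG2DsRed+, 10 libraries), each library being made from the sorted cells of a single mouse. The upper end of the age range in the labels climbs from 21 to 46 days along the list of samples, whereas the methods give day 21, so no age was used.

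These molecules have extracellular immunoglobulin domains, with which they bind the same or a related molecule on a neighbouring cell, and all but some isoforms of Ncam1 and Ncam2 cross the membrane. In peripheral nerve they are known for holding glia to axons: Cadm4 on Schwann cells binds Cadm3 on the axon along the internode, Nfasc and Nrcam build the node of Ranvier and its flanks, and L1cam and Ncam1 mark non-myelinating Schwann cells. Ncam1 has long been used as a marker of the cells that cover the neuromuscular junction.

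The 250 bases before an annotated start are shown for 3 genes that were higher in PSCs and for Cadm3, which was not, so that they can be read side by side. They come from RefSeq (GRCm38.p6), which gave windows for 8 of the 10 genes and none for Cadm1 and Ncam1. Capitals mark a GC box (GGGCGG on either strand) or the SOX core ACAATG on either strand, and each sequence is printed 5′ to 3′ on the strand of its gene.
Cadm4, chr7:24481773-24482022, plus strand: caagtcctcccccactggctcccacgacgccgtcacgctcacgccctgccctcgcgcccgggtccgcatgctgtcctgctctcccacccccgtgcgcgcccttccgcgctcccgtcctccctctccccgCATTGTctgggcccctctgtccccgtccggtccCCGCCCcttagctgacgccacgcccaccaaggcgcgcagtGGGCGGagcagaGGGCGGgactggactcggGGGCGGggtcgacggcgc
L1cam, chrX:73880835-73881084, minus strand: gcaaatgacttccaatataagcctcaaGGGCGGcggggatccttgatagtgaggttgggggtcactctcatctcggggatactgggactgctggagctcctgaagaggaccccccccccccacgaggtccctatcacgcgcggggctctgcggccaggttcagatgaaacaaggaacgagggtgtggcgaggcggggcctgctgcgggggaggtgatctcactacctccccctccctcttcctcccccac
Ncam2, chr16:81200447-81200696, plus strand: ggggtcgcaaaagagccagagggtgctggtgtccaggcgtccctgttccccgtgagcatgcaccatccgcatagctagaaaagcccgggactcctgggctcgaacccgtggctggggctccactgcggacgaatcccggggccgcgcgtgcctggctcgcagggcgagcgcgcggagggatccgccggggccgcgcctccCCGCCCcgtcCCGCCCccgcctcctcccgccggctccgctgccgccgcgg
Cadm3, chr1:173367696-173367945, minus strand: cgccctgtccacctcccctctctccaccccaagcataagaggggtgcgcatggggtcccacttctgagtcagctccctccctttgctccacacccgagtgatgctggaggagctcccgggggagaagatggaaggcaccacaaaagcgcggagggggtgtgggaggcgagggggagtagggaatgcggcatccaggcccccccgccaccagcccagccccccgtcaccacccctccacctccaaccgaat

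The Cadm4 window held 4 GC boxes and the SOX core, the printed L1cam window 1 GC box and the Ncam2 window 2. L1cam had a further window that is not printed, chrX:73880791-73881040, with 1 GC box and a GC content of 69.6%. Both L1cam windows lie inside the span of the gene in GENCODE M21 (chrX:73853778-73896105). The Cadm3 window held no match. A GC box lay in 32.7% of all 32851 promoter windows and in 7 of the 10 windows of these genes. Windows with a GC box belonged to Cadm2, Cadm4, L1cam and Ncam2. They also belonged to Nrcam and Nfasc, which were not called higher in PSCs relative to S100β-GFP+ cells. The Chl1 window held none, although Chl1 was higher in PSCs. Whether a motif goes with the level of a gene was not tested. ACAATG lay in 10.7% of all windows and here in that of Cadm4. The SOX core ACAAAG was in 16.5% of all windows and here in 1, that of Chl1, a window that lies within an annotated Chl1 exon and is not printed. The EGR element GCGTGGGCG, the octamer ATGCAAAT and TATAAA, found in 0.536%, 1.60% and 12.4% of all windows, had no match in these 10 on either strand. GC content was 75.2% in the Cadm4 and the Ncam2 window, 63.2% in the printed L1cam window and 66.8% in the Cadm3 window, above the median of 52.4% over all windows.

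For Ncam1 the primers of the study's qPCR are shown, because they tell which transcripts such a measurement reads. Capitals mark the bases of the forward primer that lie in the second of the exons it joins.
Ncam1 forward: aagaaaagACTCTGGATGGGC
Ncam1 reverse: caaggaggacacacgagcat
Inserted exon of Ncam1-205, chr9:49550540-49550569, minus strand: gcatcgtggactcgaccagagaagcaagag

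The forward primer has 8 bases at the end of the exon chr9:49557096-49557238 and 13 bases at the start of the exon chr9:49546158-49546308, and the reverse primer lies in the latter. Of the 7 Ncam1 transcripts of GENCODE M21, 4 hold both primers, 59 bases apart from end to end. In Ncam1-205 a further exon of 30 bases sits between those exons and parts the forward primer, so that only the reverse primer matches there. The counts per gene used below do not separate transcripts with and without this exon.

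Levels are given as CPM, counts per 1000000 after TMM scaling, a correction for differences in RNA makeup between libraries. Gene positions are those of GENCODE M21 on GRCm38. Library totals ranged from 5221655 to 9592875 counts. Lars2, Gm23935 and Gm15564 together made up 3.64% to 40.0% of a library. The endogenous genes whose promoters drive the transgenes were a check of the sort: Cspg4 was at 689 ± 132 CPM in the 9 PSC libraries, 71.0 ± 42.3 in the 8 S100β-GFP+ libraries and 665 ± 138 in the 10 NG2-dsRed+ libraries (SD), and S100b was at 255 ± 198.5, 29.4 ± 10.1 and 6.54 ± 4.90 CPM. For S100b the check is weak, since S100β-GFP+ libraries (9.88 to 40.9 CPM) lay below all PSC libraries (57.0 CPM or more) and overlapped NG2-dsRed+ libraries (1.23 to 17.8 CPM). The table holds 1 more S100β-GFP+ library than the study kept, and which one is not stated, so all 8 were used. Among the PSC libraries, library 18 stood apart with 14616 genes detected against 20203 to 22533 in the others. Among the S100β-GFP+ libraries the summed CPM of 10 Schwann cell lineage markers was between 657 and 2030, against 2808 to 3599 in PSCs, that of 10 macrophage and leukocyte markers between 1234 and 11960, against 37.9 to 571.5, and that of 8 fibroblast markers between 19290 and 44150, against 809.5 to 3036, so that group is called S100β-GFP+ cells here. The part of these other cells in the values below was not tested. In sorted populations such as these, fewer cells of a type and less RNA per cell cannot be told apart.

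The summed level of the 10 genes separated the cell types completely. It was between 1668 and 2636 CPM in PSC libraries (median 2022), between 130.1 and 308.3 in S100β-GFP+ libraries (median 153.6) and between 28.8 and 51.9 in NG2-dsRed+ libraries (median 32.6). Of the 10 genes, 7 were higher and 1 was lower in PSCs relative to S100β-GFP+ cells, where 22.9% of all tested genes were higher and 24.1% lower. Against NG2-dsRed+ cells 9 were higher and 0 lower, where 20.9% of all tested genes were higher and 23.1% lower. All 10 fold changes were positive in that comparison, so no gene was lower at an unadjusted p under 0.05 either, and DESeq2 and limma-voom called 0 lower. Being higher than in both was true of 7 of the 10, and of 13.9% of tested genes. For the same 7, every PSC library lay above every S100β-GFP+ library and above every NG2-dsRed+ library, which held for 5.24% and 5.08% of tested genes. The median log2 fold change of the 10 was 4.27 relative to S100β-GFP+ cells and 5.82 relative to NG2-dsRed+ cells, whereas over all tested genes it was 0.04 and 0.02.

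**Figure D1:**
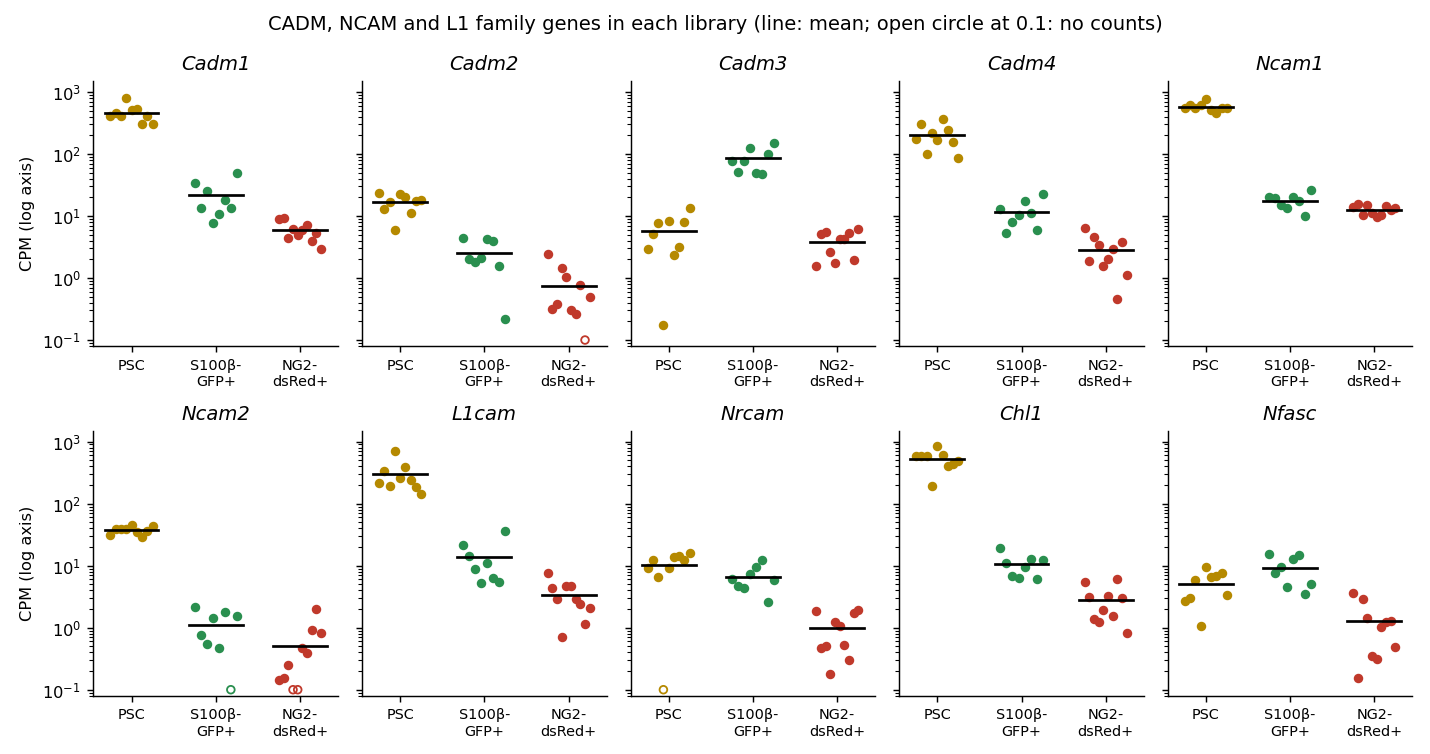
CPM (log axis) of each of the 10 genes in each PSC, S100β-GFP+ and NG2-dsRed+ library, with a line at the mean and an open circle for a library with no counts. In 7 panels every PSC library lies above all other libraries, Cadm3 is highest in S100β-GFP+ libraries, and Nrcam and Nfasc overlap between PSC and S100β-GFP+ libraries.

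Within the CADM family, also called nectin-like or SynCAM molecules, PSCs were rich in Cadm1 and Cadm4. Cadm1, a synaptic cell adhesion molecule that also sits on glia (ENSMUSG00000032076, chr9:47530173-47857637), ranged from 299.5 to 798 CPM in PSC libraries with a median of 417. It ranged from 7.59 to 48.6 CPM in S100β-GFP+ libraries (median 16.0) and from 2.91 to 9.45 in NG2-dsRed+ libraries (median 5.55). The PSC libraries were clear of both other groups, while the latter overlapped each other. The log2 fold change of Cadm1 was 4.42 (SE 0.33, adjusted p = 6.38e-12) relative to S100β-GFP+ cells and 6.28 (SE 0.33, adjusted p = 4.54e-15) against NG2-dsRed+ cells. Cadm4, the main CADM protein of Schwann cells along axons (ENSMUSG00000054793, chr7:24482023-24504539), ranged from 86.2 to 371 CPM in PSC libraries (median 175), from 5.25 to 22.6 in S100β-GFP+ libraries (median 10.7) and from 0.456 to 6.38 in NG2-dsRed+ libraries (median 2.50). It was 17.3-fold higher in PSCs relative to S100β-GFP+ cells (log2 fold change 4.12, SE 0.39, adjusted p = 5.16e-10) and 70.5-fold higher than in NG2-dsRed+ cells (log2 fold change 6.14, SE 0.40, adjusted p = 2.44e-13).

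Cadm2, a family member best known from brain and from axons (ENSMUSG00000064115, chr16:66655421-67620908), followed the same order at a level lower by an order of magnitude. Its PSC libraries held 5.96 to 23.7 CPM (median 17.5), its S100β-GFP+ libraries 0.222 to 4.50 (median 2.06) and its NG2-dsRed+ libraries 0 to 2.41 (median 0.433). No PSC library overlapped the others, although the lowest of them, library 18, came close to the highest S100β-GFP+ library. The log2 fold change was 2.69 (SE 0.46, adjusted p = 1.76e-05) relative to S100β-GFP+ cells and 4.47 (SE 0.47, adjusted p = 6.03e-09) against NG2-dsRed+ cells, the latter resting on 48 counts in all NG2-dsRed+ libraries together.

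Cadm3, which in nerve is the axonal ligand of Cadm4, was the exception in the family. It lay between 47.6 and 149.6 CPM in S100β-GFP+ libraries (median 76.5), between 0.175 and 13.3 CPM in PSC libraries (median 5.14) and between 1.56 and 6.15 CPM in NG2-dsRed+ libraries (median 4.31). Every S100β-GFP+ library was above every library of both other cell types, and PSC and NG2-dsRed+ libraries overlapped. Cadm3 was 14.7-fold lower in PSCs relative to S100β-GFP+ cells (log2 fold change -3.87, SE 0.42, adjusted p = 7.51e-09). Between PSCs and NG2-dsRed+ cells its log2 fold change was 0.57 (SE 0.39, 95% interval -0.23 to 1.37, adjusted p = 0.249), and without PSC library 18, where it was lowest, 0.81 (adjusted p = 0.0478). When the percent of counts taken by Lars2, Gm23935 and Gm15564 entered the fit, it was 0.11 (adjusted p = 0.851). Cadm3 and Cadm4 thus had opposite orders in PSCs and S100β-GFP+ cells.

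Several values moved beside the high Cadm3 of the S100β-GFP+ libraries. Cadm3 (ENSMUSG00000005338, chr1:173333258-173367695) shares 361 bases of exon on the same strand with Ackr1, a chemokine receptor gene, and how reads in shared exons were counted is not stated in the sources used. Ackr1 itself was at 20.6 to 81.5 CPM in S100β-GFP+ libraries, at most 11.0 in PSC libraries and at most 2.36 in NG2-dsRed+ libraries. Within the S100β-GFP+ libraries, Cadm3 was highest in library 33, at 149.6 CPM, where the lineage markers summed to 2030 CPM, and next highest in library 14, at 124.4 CPM, where they summed to 657 CPM. Library 3 had the most leukocyte marker RNA (11960 CPM) and 51.4 CPM of Cadm3, and library 22 the least (1234 CPM) and 47.6 CPM. The libraries highest in Cadm3 (33, 14 and 27, at 149.6, 124.4 and 101.6 CPM) were also the highest in fibroblast markers, with 38270, 44150 and 32200 CPM, and library 3 had the least, 19290 CPM. Leaving out libraries 14, 17 and 22, which had the most genes detected, gave a log2 fold change of -3.90 for PSCs relative to S100β-GFP+ cells. Some of the neuron and axon markers were also highest in S100β-GFP+ libraries: Nefm, a neurofilament gene, averaged 5.71 CPM in S100β-GFP+ libraries, 0.214 in PSC libraries and 0.325 in NG2-dsRed+ libraries, and Uchl1 averaged 10.9, 0.584 and 1.37 CPM. Both were lower in PSCs relative to S100β-GFP+ cells (log2 fold changes -4.53 and -4.17, adjusted p = 1.11e-05 and 1.87e-05). They were the 2 called of 4 tested markers, beside 24.1% of all tested genes lower, where DESeq2 called 6 of 10 lower. The sum of the 12 markers did not have the order of Cadm3, its median being 38.5 CPM in NG2-dsRed+ and 33.2 in S100β-GFP+ libraries. The 12 markers summed to between 14.7 and 44.4 CPM in S100β-GFP+ libraries, from 4.67 to 16.4 in PSC libraries and from 28.4 to 53.5 in NG2-dsRed+ libraries, where Stmn2 alone averaged 34.5 CPM. Chat was at 0 counts in PSC and NG2-dsRed+ libraries. The part of any of these in the level of Cadm3 was not tested.

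Both NCAM genes were much higher in PSCs. Ncam1 (ENSMUSG00000039542, chr9:49502136-49798925) ranged from 462 to 764 CPM in PSC libraries (median 556.5), and from 10.1 to 26.2 in S100β-GFP+ libraries (median 18.6) and from 9.73 to 15.6 in NG2-dsRed+ libraries (median 12.9). The standard deviation among PSC libraries was 14.7% of the mean for Ncam1 and 14.9% for Ncam2, against 32.6% to 71.0% for the other genes. Its log2 fold change was 5.02 (SE 0.19, adjusted p = 8.18e-18) relative to S100β-GFP+ cells and 5.50 (SE 0.17, adjusted p = 7.78e-20) against NG2-dsRed+ cells, the smallest errors among the 10. Ncam2, a homophilic relative best known from olfactory axons (ENSMUSG00000022762, chr16:81200697-81626828), ranged from 29.0 to 46.0 CPM in PSC libraries (median 39.2), from 0 to 2.18 in S100β-GFP+ libraries (median 1.08) and from 0 to 1.98 in NG2-dsRed+ libraries (median 0.322). The log2 fold change of Ncam2 was 5.08 (SE 0.48, adjusted p = 3.97e-10) relative to S100β-GFP+ cells and 6.13 (SE 0.46, adjusted p = 6.62e-12) against NG2-dsRed+ cells. The latter groups hold 53 and 35 counts of Ncam2 in all, so its folds are known less well than those of Ncam1.

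Per kilobase of exon, Ncam1 made up 95.2% ± 0.457 of NCAM RNA in the 9 PSC libraries, 95.7% ± 2.92 in the 8 S100β-GFP+ libraries and 97.0% ± 3.26 in the 10 NG2-dsRed+ libraries (SD). The shares of the other cell types spread more widely than those of PSCs and rest on 53 and 35 counts of Ncam2. A difference in the mix was not tested. The antisense gene Gm11149 overlaps 417 bases of Ncam1 exon and was at 2.80 to 13.5 CPM in PSC libraries. Reads of the 2 genes cannot be told apart there if strand was not used in counting, which the sources used here do not give.

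In the L1 family PSCs were rich in Chl1 and L1cam. Chl1, the close homolog of L1 (ENSMUSG00000030077, chr6:103510586-103750211), showed the largest fold changes of the 10 genes. It ranged from 189 to 842 CPM in PSC libraries (median 578), from 6.10 to 19.6 in S100β-GFP+ libraries (median 10.3) and from 0.809 to 6.08 in NG2-dsRed+ libraries (median 2.45). Its lowest PSC library, again library 18, was still far above the highest library of any other cell type. Chl1 was 49.3-fold higher in PSCs relative to S100β-GFP+ cells (log2 fold change 5.62, SE 0.38, adjusted p = 6.89e-13) and 187-fold higher than in NG2-dsRed+ cells (log2 fold change 7.55, SE 0.38, adjusted p = 1.47e-15). Genes annotated inside Chl1 introns on the same strand followed it: Gm44439 was at 25.8 ± 4.31 CPM in the 9 PSC libraries, 0.698 ± 0.548 in the 8 S100β-GFP+ libraries and 0.0304 ± 0.0962 in the 10 NG2-dsRed+ libraries (SD). They share no exon with Chl1.

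L1cam, which marks non-myelinating Schwann cells and growing axons (ENSMUSG00000031391, chrX:73853778-73896105), ranged from 141 to 715 CPM in PSC libraries (median 236), from 5.29 to 36.2 in S100β-GFP+ libraries (median 9.80) and from 0.712 to 7.52 in NG2-dsRed+ libraries (median 2.89). PSC libraries did not overlap the others, and the highest of them was library 18. The log2 fold change of L1cam was 4.45 (SE 0.45, adjusted p = 1.91e-09) relative to S100β-GFP+ cells and 6.45 (SE 0.45, adjusted p = 1.57e-12) against NG2-dsRed+ cells. Without library 18 it was 4.21 and 6.24. L1cam shares 100 bases of exon with Arhgap4 on the same strand, a gene at 0 to 13.3 CPM in PSC libraries.

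Nrcam and Nfasc, the L1 family members of nodes of Ranvier, did not share this pattern. Nrcam (ENSMUSG00000020598, chr12:44328885-44601964) ranged from 0 to 15.8 CPM in PSC libraries (median 12.4), from 2.61 to 12.3 in S100β-GFP+ libraries (median 5.93) and from 0.178 to 1.94 in NG2-dsRed+ libraries (median 0.80). PSC and S100β-GFP+ libraries overlapped. The PSC library without a count was library 18, in which a count of 0 allows up to 0.526 CPM (3 counts, counting error only), and the other PSC libraries held 6.68 CPM or more. Between PSCs and S100β-GFP+ cells the log2 fold change of Nrcam was 0.66 (SE 0.47, 95% interval -0.32 to 1.63, adjusted p = 0.265), and without library 18 it was 0.87 (adjusted p = 0.0323), which would make 8 of the 10 genes higher. Against NG2-dsRed+ cells it was 3.39 (SE 0.50, adjusted p = 1.99e-06).

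Nfasc, of which an isoform helps to form the axon-glia junction beside the node (ENSMUSG00000026442, chr1:132564690-132741797), ranged from 1.05 to 9.37 CPM in PSC libraries (median 5.84), from 3.48 to 15.2 in S100β-GFP+ libraries (median 8.60) and from 0.157 to 3.69 in NG2-dsRed+ libraries (median 1.13). Each group overlapped the next. The log2 fold change of Nfasc was -0.84 (SE 0.45, 95% interval -1.78 to 0.09, adjusted p = 0.130) between PSCs and S100β-GFP+ cells and 1.96 (SE 0.46, adjusted p = 8.09e-04) between PSCs and NG2-dsRed+ cells. The 8 markers of myelinating Schwann cells, of which 1 was higher and 0 were lower in PSCs relative to S100β-GFP+ cells, had -0.30 as their median log2 fold change there. Among all tested genes 22.9% were higher and 24.1% lower in that comparison.

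**Figure D2:**
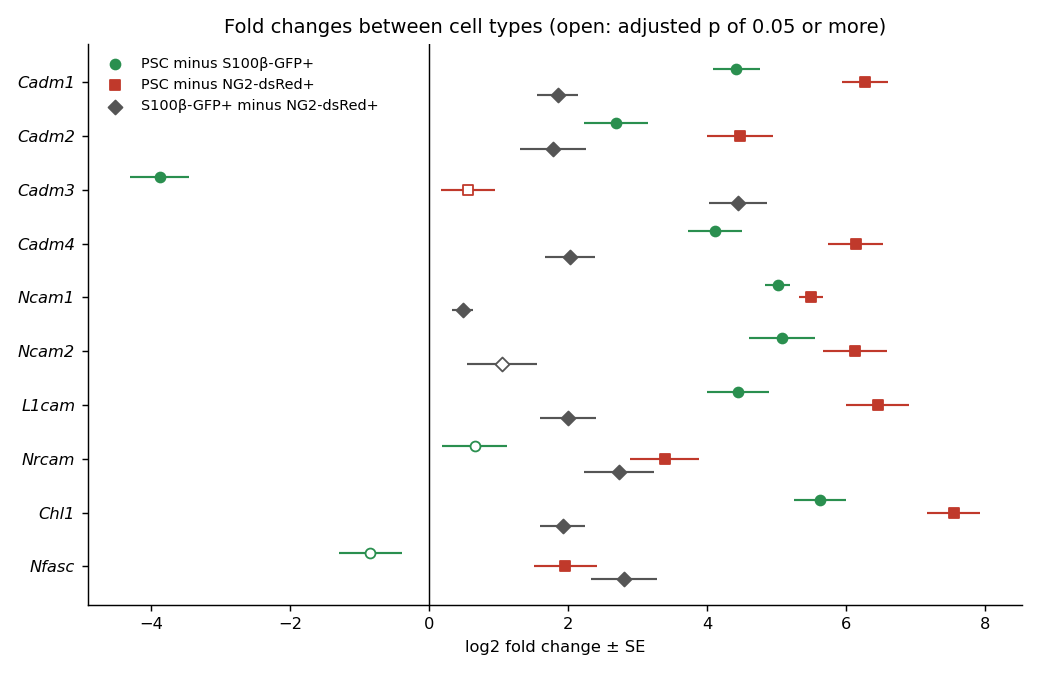
Log2 fold changes with their standard errors for each gene in the 3 comparisons between cell types, open symbols marking an adjusted p of 0.05 or more. Cadm3 at -3.87 is the only gene called lower in PSCs relative to S100β-GFP+ cells, and Chl1 at 7.55 lies farthest to the right.

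S100β-GFP+ and NG2-dsRed+ cells share libraries with the comparisons above. Of the 10 genes 9 were higher and 0 lower in S100β-GFP+ cells, where 18.1% of tested genes were higher and 15.2% lower. Cadm3 differed most, with a log2 fold change of 4.44 (SE 0.42, adjusted p = 1.09e-09), followed by Nfasc with 2.81 (SE 0.47, adjusted p = 2.30e-05) and Nrcam with 2.73 (SE 0.50, adjusted p = 7.53e-05). Cadm1, Cadm2, Cadm4, L1cam and Chl1 had log2 fold changes between 1.78 and 2.02. Ncam1 differed least among those called, by 0.49 (SE 0.15, adjusted p = 0.0141), and lost the call without S100β-GFP+ library 33 (0.39, adjusted p = 0.0516). Ncam2 was not called (1.05, SE 0.51, 95% interval 0.01 to 2.09, adjusted p = 0.115), but was without NG2-dsRed+ library 30 (1.59, adjusted p = 0.0123) and without S100β-GFP+ library 27 (1.24, adjusted p = 0.0442). Every S100β-GFP+ library lay above every NG2-dsRed+ library for 3 of the 10 genes, Cadm3, Nrcam and Chl1, against 7.21% of tested genes. For Chl1 the nearest libraries were at 6.10 and 6.08 CPM.

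To compare the genes with each other, CPM was divided by the length of all annotated exons of a gene in kilobases. In PSCs this level was 93.4 ± 42.6 CPM per kb for Cadm4, 66.3 ± 9.74 for Ncam1, 44.1 ± 14.4 for Cadm1, 42.7 ± 14.6 for Chl1 and 40.4 ± 23.8 for L1cam (SD, n = 9). The remaining genes were far below, with 3.32 ± 0.495 CPM per kb for Ncam2, 1.69 ± 0.584 for Cadm2, 0.784 ± 0.557 for Cadm3, 0.779 ± 0.363 for Nrcam and 0.363 ± 0.192 for Nfasc (SD, n = 9). The gap between L1cam and Ncam2 was 3.45 on the log2 scale and was seen in 9 of 9 libraries.

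Of the 9 pairs of neighbours in this order, 4 differed in an exact two-sided permutation test that flips signs within libraries, adjusted over the 9 pairs. They were Ncam1 over Cadm1 (mean log2 difference 0.64 ± 0.38 SD, 8 of 9 libraries, adjusted p = 0.0176), L1cam over Ncam2, Ncam2 over Cadm2 (1.06 ± 0.65 SD) and Cadm2 over Cadm3 (1.55 ± 1.29 SD). The last 3 held in 9 of 9 libraries, with an exact p of 0.0039, the smallest that 9 libraries allow, and an adjusted p of 0.0117. Cadm4 and Ncam1 did not differ beyond their spread (0.37 ± 0.74 SD, exact permutation test, adjusted p = 0.316), nor did Cadm1 and Chl1, Chl1 and L1cam, Cadm3 and Nrcam, or Nrcam and Nfasc (exact permutation test, adjusted p between 0.451 and 0.981). The choice of length mattered at the top: by the longest transcript Cadm1 came first, with Ncam1 minus Cadm1 at -0.10 (exact permutation test, adjusted p = 0.558).

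The make-up of the CADM and L1 families per kilobase was set out for each cell type, and a difference in it was not tested. Cadm4 and Cadm1 made up 64.7% ± 9.88 and 33.1% ± 9.11 of CADM RNA in PSCs and Cadm3 0.749% ± 0.776 (SD, n = 9), whereas in S100β-GFP+ cells Cadm3 made up 59.7% ± 12.7 (SD, n = 8) and, for NG2-dsRed+ cells 24.8% ± 15.7 (SD, n = 10). The share of Cadm3 was at least 41.2% in every S100β-GFP+ library. By the longest transcript Cadm4 made up 47.1% and Cadm1 51.2% in PSCs, and Cadm3 0.730%. In the L1 family, Chl1 and L1cam together left 1.03% ± 0.591 to Nrcam and 0.460% ± 0.256 to Nfasc in PSCs (SD, n = 9), against 14.4% ± 7.47 and 17.9% ± 7.15 in S100β-GFP+ cells (SD, n = 8).

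**Figure D3:**
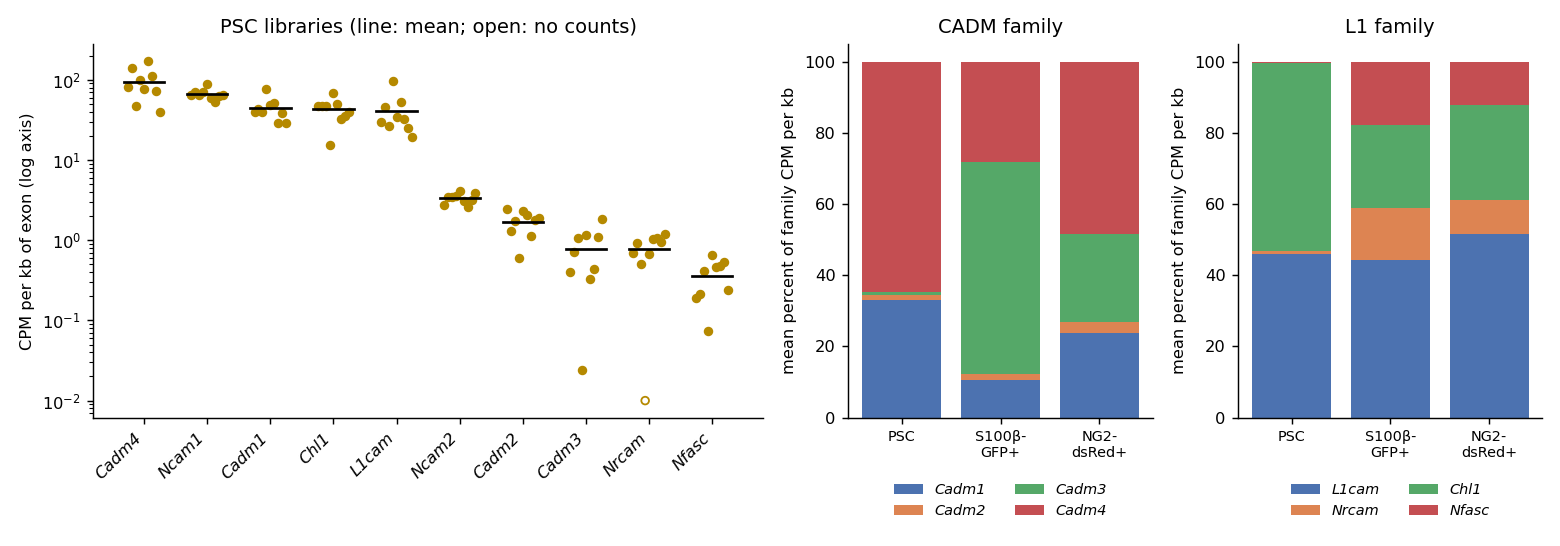
Left, CPM per kb of exon (log axis) of the 10 genes in the 9 PSC libraries, with a line at the mean and an open circle for no counts. Centre and right, mean percent of each gene in the summed CPM per kb of the CADM and of the L1 family in each cell type: Cadm3 takes 0.749% of the CADM family in PSCs and 59.7% in S100β-GFP+ cells.

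The spread among PSC libraries was not the same for all genes. Chl1 was between 404 and 842 CPM in 8 PSC libraries and 189 CPM in library 18, and L1cam was between 141 and 391 CPM in 8 of them and 715 CPM in library 18. In that library Cadm1 was also at its highest, and Cadm2, Cadm3, Nrcam and Nfasc were at their lowest, while Ncam1 (608 CPM) and Ncam2 (39.8 CPM) were within the range of the others. Sox10 was at 703 CPM there, the highest of the PSC libraries.

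The part of a library taken by Lars2, Gm23935 and Gm15564 ranged from 3.64% to 36.6% among PSC libraries and was set against the log2 CPM of each of the 10 genes. Cadm4 rose with it (Pearson r = 0.89, exact permutation p = 5e-04, adjusted p = 0.005 over 10 relations; Spearman rho = 0.90, exact permutation p = 0.002, adjusted p = 0.020). Cadm4 was at 86.2 CPM in library 36, with a share of 3.64%, and at 371 CPM in library 23, with a share of 36.6%. Without these, the libraries farthest from the median share, r was 0.81 (exact permutation p = 0.0198, adjusted p = 0.184), so that the call rests in part on them. For the other genes r lay between -0.58 (Cadm3) and 0.67 (L1cam), and none passed on Pearson's r after adjustment (exact permutation test, adjusted p of at least 0.216). With this share as a term in the fit, the number of the 10 genes called higher in PSCs was 7 relative to S100β-GFP+ cells and 9 relative to NG2-dsRed+ cells, as without it. What the share reflects was not tested.

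**Figure D4:**
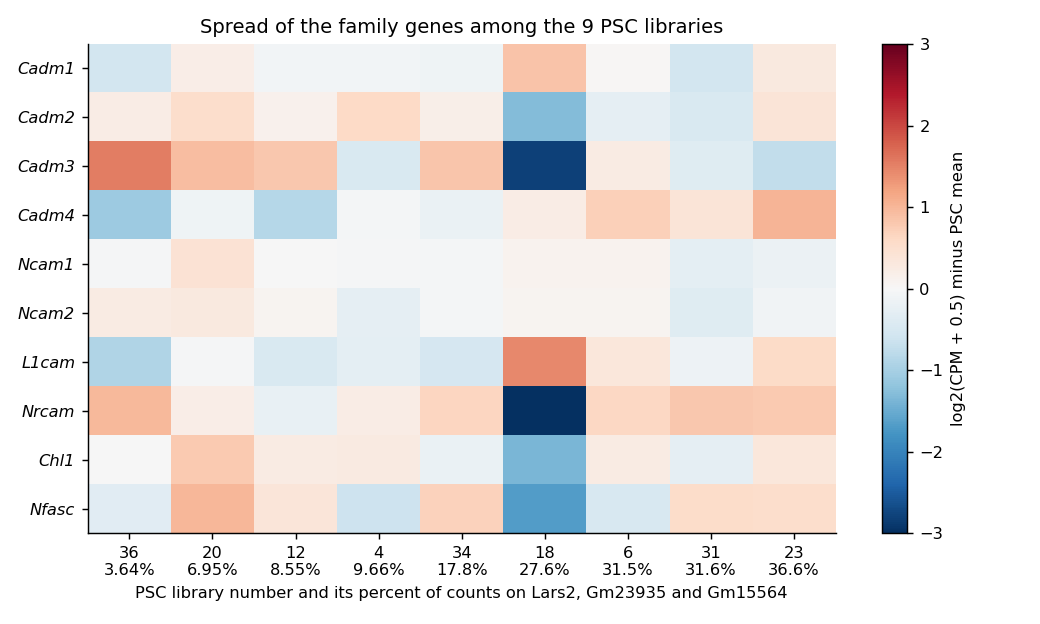
Log2(CPM + 0.5) of each gene in the 9 PSC libraries minus its mean over them, the libraries being ordered by their percent of counts on Lars2, Gm23935 and Gm15564. Cadm4 goes from low to high along this order, and library 18 is low in Nrcam, Cadm3, Nfasc, Chl1 and Cadm2 and high in L1cam and Cadm1.

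The genes most like each member were sought by the Pearson correlation of log2 CPM over all 27 libraries. These values describe a likeness that the differences between cell types largely set, and carry no test. Nearest to Cadm1 were Pou3f1 (r = 0.986) and Sox10 (r = 0.983), transcription factors of the Schwann cell lineage, and Pou3f1 was also nearest to L1cam (r = 0.980). Foxd3, a transcription factor of neural crest and early glia, and Megf9 were nearest to Cadm4 (both r = 0.977). For Chl1 the nearest were the glial membrane protein genes Gpr37l1 (r = 0.980) and Gpm6b (r = 0.978), and Gpr37l1 was second for L1cam (r = 0.977). Ptprz1, a receptor phosphatase gene, came second for both Ncam1 (r = 0.987) and Ncam2 (r = 0.965), after Fam19a5 (r = 0.988) and Rxrg (r = 0.971).

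Cadm2, which was higher in PSCs at a lower level, and Nfasc, Nrcam and Cadm3, which did not follow the PSC pattern, had other neighbours. Among the genes most like Nfasc was Mal (r = 0.904), which encodes a myelin lipid-raft protein. Nrcam was most like Gng7 (r = 0.911) and Fmn1 (r = 0.900), Cadm2 like Kcnk10 (r = 0.931) and Fads6 (r = 0.916), and Cadm3 like Lacc1 (r = 0.941) and 1700019D03Rik (r = 0.938). Lacc1, known from macrophages, was at 27.3 ± 9.78 CPM in the 8 S100β-GFP+ libraries and 2.87 ± 1.98 in the 9 PSC libraries (SD).

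Enzymes that modify NCAM were next examined. Polysialic acid, a long sugar chain that loosens NCAM binding, is built on Ncam1 by St8sia2 and St8sia4. St8sia2 was between 30.3 and 204 CPM in PSC libraries (median 107), between 0.969 and 7.49 in S100β-GFP+ libraries (median 3.49) and between 3.55 and 33.8 in NG2-dsRed+ libraries (median 12.1). St8sia4 was between 1.34 and 9.24 CPM in PSC libraries (median 3.37), between 28.9 and 123 in S100β-GFP+ libraries (median 50.8) and between 19.2 and 55.2 in NG2-dsRed+ libraries (median 38.3). The polysialyltransferases were thus in opposite order, and for St8sia4 no PSC library reached any other. St8sia2 had a log2 fold change of 4.97 (SE 0.46, adjusted p = 3.33e-10) against S100β-GFP+ and 3.05 (SE 0.38, adjusted p = 9.8e-08) against NG2-dsRed+ cells, and St8sia4 of -3.81 (SE 0.37, adjusted p = 8.7e-10) and -3.07 (SE 0.35, adjusted p = 3.03e-08). Of the 6 listed enzymes for polysialic acid and HNK-1, 4 were tested. Of these, 1 was higher and 2 were lower in PSCs relative to S100β-GFP+ cells (the other lower gene being Chst10, not called with limma-voom), and 1 was higher and 1 lower than in NG2-dsRed+ cells. Among all tested genes 22.9% were higher and 24.1% lower in the former comparison, and 20.9% and 23.1% in the latter.

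Proteases that shed these molecules from the membrane formed a list of 6 genes, all tested. Relative to S100β-GFP+ cells 2 were higher and 4 lower in PSCs, beside 22.9% and 24.1% of all tested genes. Against NG2-dsRed+ cells 1 was higher and 2 were lower, beside 20.9% and 23.1%. With DESeq2 1 was higher than in S100β-GFP+ cells. Adam17, which cleaves L1cam and Ncam1, was at 194 ± 61.0 CPM in the 9 PSC libraries, 77.2 ± 11.7 in the 8 S100β-GFP+ libraries and 50.8 ± 10.2 in the 10 NG2-dsRed+ libraries (SD), with log2 fold changes of 1.33 (SE 0.17, adjusted p = 2.53e-07) and 1.93 (SE 0.17, adjusted p = 8.52e-11). Adam10 and Bace2 were lower than in both, with log2 fold changes of -0.56 and -0.55 for Adam10 and of -1.75 and -1.96 for Bace2. Adam8, which cleaves Chl1 and is abundant in leukocytes, was at 0.720 ± 0.595 CPM in PSCs (SD, n = 9) and 86.0 ± 54.2 in S100β-GFP+ cells (SD, n = 8), a log2 fold change of -6.82 (SE 0.59, adjusted p = 9.32e-11). It was named after its values were seen.

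Contactins and their paranodal partners, which dock to L1 family members at the node, were mostly too low to be tested. Of 14 listed genes 3 passed the filter. Of these, 1 was higher in PSCs relative to S100β-GFP+ cells, beside 22.9% of all tested genes, and 2 were higher than in NG2-dsRed+ cells, beside 20.9%. DESeq2, which gave values for all 14, called 1 higher and 2 lower in the former comparison. Cntn6, a contactin, ranged from 6.58 to 14.1 CPM in PSC libraries and reached 3.29 and 0.566 CPM at most in the others, with log2 fold changes of 3.52 (SE 0.56, adjusted p = 5.9e-06) and 6.48 (SE 0.64, adjusted p = 1.53e-09). Gldn, the secreted partner of Nfasc and Nrcam, had log2 fold changes of -0.68 (SE 0.31, adjusted p = 0.0672) against S100β-GFP+ and 1.96 (SE 0.30, adjusted p = 4.59e-06) against NG2-dsRed+ cells.

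Other immunoglobulin adhesion genes moved in both directions, with shares not far from those of all tested genes (22.9% higher and 24.1% lower relative to S100β-GFP+ cells, 20.9% and 23.1% relative to NG2-dsRed+ cells) except for those lower than in NG2-dsRed+ cells. Of 25 tested among 27 listed, 7 were higher and 8 lower in PSCs relative to S100β-GFP+ cells, the median log2 fold change being -0.78, and 7 were higher and 12 lower than in NG2-dsRed+ cells, with a median of -0.37. Igsf11, a homophilic synaptic adhesion molecule, was at 96.6 ± 26.9 CPM in the 9 PSC libraries, 4.08 ± 3.27 in the 8 S100β-GFP+ libraries and 0.733 ± 0.339 in the 10 NG2-dsRed+ libraries (SD), with log2 fold changes of 4.59 (SE 0.37, adjusted p = 1.9e-11) and 7.00 (SE 0.39, adjusted p = 9.95e-15). Negr1, of the IgLON family, was at 134 ± 69.2, 9.85 ± 2.47 and 2.29 ± 0.990 CPM, with log2 fold changes of 3.76 (SE 0.29) and 5.86 (SE 0.30). Its relative Opcml went the other way, at 10.5 ± 3.52, 66.8 ± 20.1 and 82.9 ± 18.4 CPM, with log2 fold changes of -2.66 (SE 0.20) and -2.97 (SE 0.20). Of those lower than in NG2-dsRed+ cells, Pecam1, Esam, Icam2 and Jam2 are genes of endothelium and had log2 fold changes between -3.15 and -2.37 there, while none of these 4 passed against the S100β-GFP+ cells, as F11r, a junctional gene, did (-1.08, adjusted p = 0.0315). They were named after their values were seen. Endothelial markers summed to 148.4 to 675 CPM in PSC libraries, to 1441 to 3447 in NG2-dsRed+ libraries and to 128.5 to 2737 in S100β-GFP+ libraries, the highest of the last being libraries 17, 22 and 14 with 2737, 1431 and 849 CPM. The part of endothelial cells in these values was not tested.

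**Figure D5:**
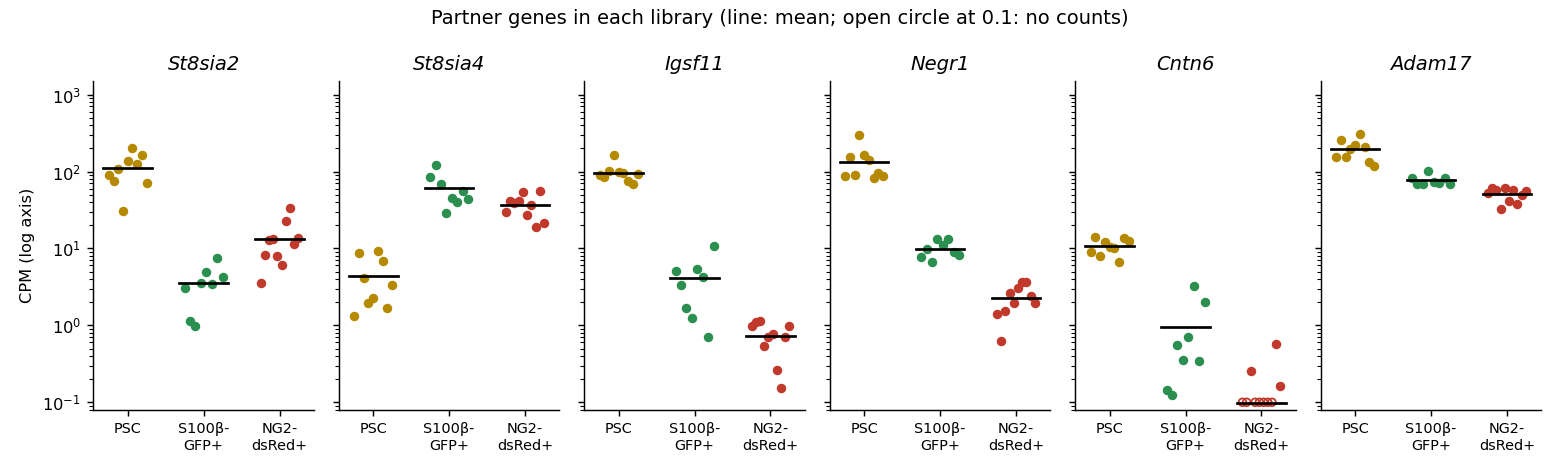
CPM (log axis) of St8sia2, St8sia4, Igsf11, Negr1, Cntn6 and Adam17 in each library, with a line at the mean and an open circle for no counts. St8sia4 is the only gene of the 6 that lies lower in PSC libraries than in the others.

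Cytoplasmic anchors of these molecules and their signalling partners were counted in the same way, beside 22.9% higher and 24.1% lower among all tested genes relative to S100β-GFP+ cells, and 20.9% and 23.1% relative to NG2-dsRed+ cells. Whether these lists differ from other genes was not tested. Of 26 tested anchors among 28 listed (protein 4.1, MAGUK, ankyrin, spectrin and ERM genes and others), 5 were higher and 12 lower than in S100β-GFP+ cells, the median log2 fold change being -0.46, and 4 were higher and 12 lower than in NG2-dsRed+ cells, with a median of -0.51. Epb41l1, a protein 4.1 gene, had log2 fold changes of -2.71 (SE 0.22) and -3.62 (SE 0.22), Ank2, an ankyrin gene that binds the L1 family tail, of -2.01 (SE 0.35) and -2.43 (SE 0.34), and Apba1, an adaptor gene, of -3.22 (SE 0.34) and -1.84 (SE 0.32).

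Of 10 tested co-receptors among 11 listed, 1 was higher and 5 were lower in PSCs relative to S100β-GFP+ cells, and 0 were higher and 8 lower than in NG2-dsRed+ cells. The fold changes of all 10 were negative against NG2-dsRed+ cells in edgeR, so none was higher at an unadjusted p under 0.05 either. With DESeq2 and limma-voom the counts against NG2-dsRed+ cells were 0 higher and 7 to 8 lower. Egfr was at 11.5 ± 5.99 CPM in the 9 PSC libraries, 110 ± 37.2 in the 8 S100β-GFP+ libraries and 69.9 ± 21.7 in the 10 NG2-dsRed+ libraries (SD), with log2 fold changes of -3.26 (SE 0.35) and -2.60 (SE 0.34). Nrp1, the co-receptor through which L1cam joins semaphorin signalling, had log2 fold changes of -1.69 (SE 0.26) and -2.98 (SE 0.26), and Fgfr2, an FGF receptor gene of a kind that binds NCAM, of -2.72 (SE 0.61) and -2.27 (SE 0.58) at no more than 8.23 CPM in any library.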

How the data were processed

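RNA of sorted PSCs, S100β-GFP+ cells and NG2-dsRed+ cells was measured by RNA-seq after amplification with a SMART-Seq v4 kit. Trimming with ea-utils and Btrim, alignment with HISAT2 and counting of reads per gene with HTSeq were done by the authors, whose deposited table gives raw, whole-number counts. The submitters' processing notes name HISAT2, HTSeq and GRCm38, while neither the annotation nor the use of strand is stated in them. Library numbers tied columns to samples, leaving 27 of the 36 labelled libraries with data, and the others were not analysed here. No replicate columns were identical, and each pair within a cell type differed by more than sampling noise (chi-square divided by its degrees of freedom, 8.10 or more). Replicates of a cell type were separate mice, and whether cell types share mice is not stated.

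Identifiers were matched to GENCODE M21 (99.72% found). In R 4.3.3, edgeR 4.0.16 was run with TMM scaling, filterByExpr (minimum count 10), 1 quasi-likelihood fit of all 3 cell types and Benjamini-Hochberg adjustment at 0.05 over all tested genes. The study used DESeq2 on these counts, which is an alternative here. Intervals of fold changes are 95% intervals from the fit. Log2 levels used a prior count of 2, and per-kb log2 levels added 0.5 counts. The pipeline was tested on simulated data with known changes. Floors are 3 counts per library and, since PCR copies are counted, cover counting error only. The genes, partner lists and marker lists were chosen with earlier results of these data known, and Pecam1, Vcam1 and Fgfr4 are on a partner list and a marker list. Named were all 10 genes, up to 3 genes of each partner list that passed against both other groups with the same sign and had the largest smaller fold change, the 2 genes most like each of the 10, genes overlapping them, and checks. A gene that this rule also named is not reported here.

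Alternatives were DESeq2 1.42.0 (Wald test), DESeq2 size factors in edgeR, limma-voom (limma 3.58.1) with sample quality weights, no filter on low counts, only the compared cell types, a term for the share taken by Lars2, Gm23935 and Gm15564, fits without S100β-GFP+ libraries 14, 17 and 22 and without each library in turn, the longest transcript as the length, plain library totals and the relation to the share without the 2 libraries farthest from the median. The relation without PSC library 18 was added after seeing the data. Satellite cell markers had median sums of 164 CPM for PSCs, 35.6 for S100β-GFP+ cells and 45.7 for NG2-dsRed+ cells. Most of the PSC value came from Megf10, which averaged 114 CPM, against 4.10 and 4.89 for the other groups. Of the 10 markers, 2 were higher and 1 lower in PSCs relative to S100β-GFP+ cells, beside 22.9% and 24.1% of all tested genes. With limma-voom 6 were higher and 1 lower there, the median log2 fold change being 2.03 against 0.78 in edgeR. Relative to NG2-dsRed+ cells 1 was higher and 0 lower, beside 20.9% and 23.1%. Muscle fibre sums had medians of 391, 312.5 and 407 CPM in the same order. Those of pericyte and smooth muscle markers were 1068, 824 and 11730. The last list includes Cspg4, whose promoter drives dsRed and which averaged 689 CPM across PSC libraries.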

Additional observations from a re-analysis of the deposited data

Results flagged for a closer look

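Each of the 10 genes was examined in each cell type for a library at the top or bottom that stood far from its nearest neighbour, 30 groups in all, and 4 groups had such a library, where chance gives about 1 in 20 groups. Of these, 2 concern PSC library 18. Cadm1 was at 798 CPM there, the next highest PSC library being at 541 CPM, and L1cam was at 715 CPM, the next highest being at 391 CPM. This is also the PSC library with the fewest genes detected (14616) and, with 5334916 counts, the smallest total of the PSC libraries. Without it the log2 fold change of Cadm1 was 4.33 relative to S100β-GFP+ cells and 6.22 relative to NG2-dsRed+ cells, and that of L1cam was 4.21 and 6.24. Ncam1 was at 764 CPM in PSC library 20, the next highest PSC library being at 610 CPM. Ncam2 was at 1.98 CPM in NG2-dsRed+ library 30, the next highest library of that cell type being at 0.913 CPM, and without this library the difference between S100β-GFP+ and NG2-dsRed+ cells passed the threshold (log2 fold change 1.59, adjusted p = 0.0123).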

How the results depend on the processing

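No paired analysis was possible because the replicate numbers are library numbers that occur once each, so that the groups share none. Whether libraries of different cell types came from the same mice is not stated. Leaving out any 1 S100β-GFP+ library, of which the table holds 1 more than the study kept, left 7 genes higher and 1 lower in PSCs relative to S100β-GFP+ cells. Of 1018 fold changes of the 10 genes under alternatives, 1010 kept their direction and side of the threshold, 2 lost the call, 6 gained it and 0 reversed. The calls lost were of Ncam1 between S100β-GFP+ and NG2-dsRed+ cells, without a filter (0.45, adjusted p = 0.0604) and without S100β-GFP+ library 33 (0.39). Those gained were of Ncam2 in the same comparison with DESeq2 (1.14, adjusted p = 0.0454) and without NG2-dsRed+ library 30 or S100β-GFP+ library 27, of Nrcam against S100β-GFP+ cells with limma-voom (0.92, adjusted p = 0.0231) and without PSC library 18, and of Cadm3 against NG2-dsRed+ cells without PSC library 18 (0.81). Over the alternatives that leave out 1 library, 7 to 8 of the 10 genes were called higher in PSCs relative to S100β-GFP+ cells, 9 to 10 higher than in NG2-dsRed+ cells and 8 to 10 higher in S100β-GFP+ than in NG2-dsRed+ cells. Over all genes, no filter on low counts, which tests more genes, raised the number called from 7198 to 16556 between PSCs and S100β-GFP+ cells and from 5099 to 10586 between S100β-GFP+ and NG2-dsRed+ cells. In the order per kb in PSCs, the longest transcript as the length turned Ncam1 minus Cadm1 from 0.64 to -0.10 and brought Cadm1 minus Chl1 past the threshold (0.51, exact permutation test, adjusted p = 0.0439). Nrcam minus Nfasc was between 0.47 and 1.21 when each PSC library was left out, passing the threshold without library 18. The relation of Cadm4 to the share of counts on 3 genes had r = 0.81 without the 2 libraries farthest from the median share and no longer passed, and r = 0.90 without library 18. For these the cause was not tested. Depth limits Ncam2, Cadm2 and Nrcam outside PSCs, where whole groups hold 35 to 310 counts. It also limits Nfasc, Chl1, Cadm4, L1cam and Cadm3 in NG2-dsRed+ cells, where the group holds 90, 186, 194, 225 and 260 counts.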
